A study of Mus musculus with 12 samples.

Results

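The CC chemokines described here are 10 small secreted proteins, Ccl2, Ccl3, Ccl4, Ccl5, Ccl6, Ccl7, Ccl9, Ccl12, Ccl22 and Ccl24. They were found by their Ensembl identifiers in the count tables of both experiments of the study, and each of the 10 matched 1 row of the 55487 genes listed. RNA-seq was measured in 12 libraries of C57BL/6 mouse cells, labelled as taken from limbs at an age of 8 weeks. The first experiment compared bone marrow macrophages (BMMs), grown from marrow with macrophage colony-stimulating factor, of female mice after removal of the ovaries (OVX, ovariectomy, which ends ovarian estrogen) or a sham operation, with 3 libraries of each. The second compared mesenchymal stem cells (MSCs) as 2 control libraries (MSC), 2 libraries of MSCs co-cultured with RAW264.7 cells (MSC+RAW-TW) and 2 of MSCs co-cultured with RAW264.7 cells stimulated by lipopolysaccharide (MSC+RAW-LPS-TW). RAW264.7 is an established mouse macrophage line, and lipopolysaccharide (LPS) is a component of the bacterial outer membrane. TW stands for the transwell, a porous membrane between both cell types that the study's group names give and the sample labels do not.

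CC chemokines carry a pair of neighbouring cysteines near the start of the mature protein and act on receptors of the G protein-coupled class on leukocytes. Ccl2, Ccl7 and Ccl12 attract monocytes through Ccr2, and Ccl3, Ccl4 and Ccl5 act on monocytes, macrophages and T cells. Ccl6 and Ccl9 are myeloid chemokines of rodents that signal through Ccr1, Ccl22 is a ligand of Ccr4 that macrophages and dendritic cells secrete, and Ccl24 is an eotaxin that attracts eosinophils through Ccr3. Macrophages raise Ccl2, Ccl3, Ccl4 and Ccl5 when Toll-like receptor 4 senses LPS and activates NF-kappa B. In bone, chemokines of this family draw osteoclast precursors, and Ccl9 is made by osteoclasts.

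In the annotation of GRCm38, 8 of the 10 genes lay on chromosome 11 in 2 blocks, and all 10 were protein-coding. Ccl2 (chr11:82035571-82037453), Ccl7 (chr11:82045712-82047525) and Ccl12 (chr11:82101845-82103400) lay in this order on the plus strand, with Ccl11, a CC ligand outside the 10, between Ccl7 and Ccl12. Ccl5 (chr11:83525778-83530518), Ccl9 (chr11:83572919-83578636), Ccl6 (chr11:83587882-83593087) and Ccl3 (chr11:83647844-83649355) lay on the minus strand and Ccl4 (chr11:83662584-83664683) on the plus strand. Ccl22 (chr8:94745590-94751699) was on the plus strand and Ccl24 (chr5:135569937-135573049) on the minus strand. A gene on the opposite strand overlapped Ccl2 (Gm17268, 0 to 17 counts per library) and Ccl6 (E230016K23Rik, 10 to 45 counts), and whether reads were counted by strand was not stated.

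RefSeq promoters were given for Ccl3, Ccl6, Ccl9, Ccl12 and Ccl22, and the 250 bases before the start site are shown for 3 of them, read in the direction of the gene in GRCm38.p6. They stand for the 3 responses seen next to LPS-stimulated cells. Ccl3 (chr11:83649379-83649628, minus strand) rose most among members with counts in every group, Ccl12 (chr11:82101595-82101844, plus strand) fell, and Ccl9 (chr11:83578637-83578886, minus strand) did not pass the fold limit. Capitals mark matches, on either strand, to the TATA box TATAAA. They also mark the AP-1 pattern TGANTCA and the NF-kappa B consensus. The C/EBP pattern TTGCNNNAA and the interferon response consensus were searched as well.

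Ccl3: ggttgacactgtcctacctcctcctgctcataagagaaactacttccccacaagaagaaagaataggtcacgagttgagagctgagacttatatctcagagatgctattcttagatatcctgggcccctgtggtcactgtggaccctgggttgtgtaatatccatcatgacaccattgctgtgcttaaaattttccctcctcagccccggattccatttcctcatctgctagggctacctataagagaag
Ccl12: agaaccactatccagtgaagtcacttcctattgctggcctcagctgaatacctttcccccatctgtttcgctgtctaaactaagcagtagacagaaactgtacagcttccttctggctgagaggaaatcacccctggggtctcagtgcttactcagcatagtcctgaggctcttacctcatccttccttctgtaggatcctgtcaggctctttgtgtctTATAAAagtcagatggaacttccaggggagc
Ccl9: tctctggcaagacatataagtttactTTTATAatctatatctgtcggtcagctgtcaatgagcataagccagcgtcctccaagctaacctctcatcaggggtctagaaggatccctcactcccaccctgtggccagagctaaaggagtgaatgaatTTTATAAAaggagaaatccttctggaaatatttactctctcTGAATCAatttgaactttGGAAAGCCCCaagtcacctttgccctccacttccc

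TATAAA stood 31 to 26 bases before the start of Ccl12 and was also in the promoter of Ccl9, so in 2 of the 5 members and in 12.4% of 32851 mouse promoters of the same length. The NF-kappa B consensus was in that of Ccl9 alone among the 5, beside 7.25% of all promoters, and TGANTCA likewise, 53 to 47 bases before the start, beside 6.75%. No member promoter held TTGCNNNAA or the interferon response consensus, which were in 8.29% and 1.14% of promoters. In Ccl9, a TATAAA match on one strand overlapped one on the other. A match is a run of letters and not a measured binding site.

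The libraries held 17012923 to 45367105 counts, and sham 2 and sham 3, and both MSC+RAW-TW libraries, were near-identical, so each of these pairs was counted as 1 sample. Over genes with 2000 or more counts in a pair, the squared difference was on average 3.50 and 4.37 times what sampling noise gives for these pairs, and 51.1 to 438 times for every other pair within a group. That left n = 3 for OVX, n = 2 for sham, n = 2 for MSC, n = 1 for MSC+RAW-TW and n = 2 for MSC+RAW-LPS-TW. The labels did not say that replicates came from separate mice or cultures, so p-values measure only the spread between these samples. Macrophage transcripts were abundant in the libraries labelled MSC. Csf1r, the receptor of macrophage colony-stimulating factor, had a mean of 1111 CPM (counts scaled to a common library size) there and 1063 in sham BMMs, while Adgre1, which encodes F4/80, had 548 and 2102. Col1a1, a collagen gene of stromal cells, was at 457 CPM in MSC libraries and 1997 in sham BMMs, and Pdgfrb, a growth factor receptor of stromal cells, at 159 and 103. Summed over 20 macrophage markers, the level was 65880 to 71351 CPM in sham, 31967 to 31989 CPM in MSC, 42697 in MSC+RAW-TW and 17221 to 17994 in MSC+RAW-LPS-TW, and none of the 20 was at 0 in any group. Lyz2 alone made up most of this sum, with means of 50085 CPM in sham, 21663 in MSC, 26491 in MSC+RAW-TW and 9569 in MSC+RAW-LPS-TW. Single markers differed in direction. Among the MSC groups, Adgre1 (1468 CPM) and Ptprc (218 CPM) were highest in MSC+RAW-LPS-TW, while Csf1r (756 CPM) was lowest there. The sum over 12 stromal markers was 3841 to 3941 CPM in MSC and 10534 to 11765 CPM in sham. In bulk RNA, fewer cells of a type and less RNA per cell cannot be told apart.

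In BMMs, OVX libraries held less chemokine RNA than sham libraries. Calls needed a 2-fold difference with an adjusted p up to 0.05 in edgeR's quasi-likelihood test, and 9 members had enough counts to be tested. Of these, 3 were called lower (Ccl4, Ccl5 and Ccl12) and 0 higher, against 3.08% of 16768 genes called lower and 5.39% called higher. All 9 had a log2 fold change below 0, as had 50.5% of all genes tested. Their median log2 fold change was −0.995, and that of all genes was −0.01. DESeq2 called 4 of the members lower and 0 higher. With sham 2 and 3 as 1 sample, the levels of 7 of these 9 were lower in OVX with no overlap, as were those of 23.2% of genes tested. Per length of message, the sum of the 10 members was 738 to 1042 RPKM (CPM per kilobase of exon) in OVX and 1472 to 2272 in sham.

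**Figure D1:**
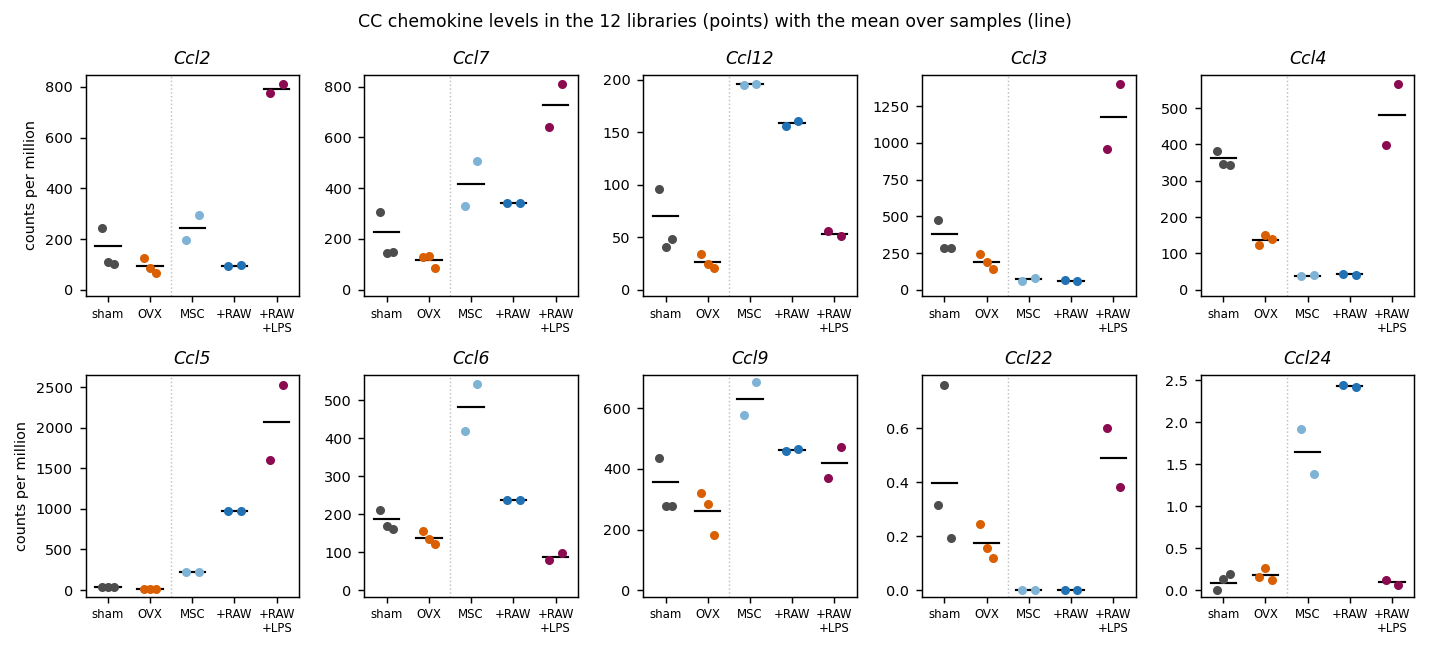
Level of each CC chemokine in CPM (linear axis) in the 12 libraries, by group on the horizontal axis, with MSC+RAW-TW written as +RAW and MSC+RAW-LPS-TW as +RAW+LPS. Points are libraries and lines are means over samples, with a near-identical pair of libraries as 1 sample. Ccl5 lay between 7.58 and 9.57 in OVX and between 36.1 and 37.0 in sham, and reached 1606 and 2524 in MSC+RAW-LPS-TW.

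Ccl5 (RANTES), which attracts T cells and monocytes, showed the clearest difference. Its level was 7.58, 9.57 and 9.17 CPM in OVX 1 to 3, and 36.1, 37.0 and 36.8 CPM in sham 1 to 3. The groups stood far apart and the sham libraries nearly coincided. The log2 fold change of Ccl5 was −2.06 ± 0.19 (SE, edgeR adjusted p = 0.00273), or 4.17-fold lower in OVX. Ccl4, which attracts monocytes and T cells, was at 122, 150 and 140 CPM in OVX and at 381, 345 and 344 CPM in sham. Every OVX library was below every sham library, and Ccl4 fell by 1.41 ± 0.18 on the log2 scale (edgeR adjusted p = 0.00568). These calls of Ccl4 and Ccl5 held under all 15 alternatives tried, with log2 fold changes of −1.48 to −1.33 and of −2.12 to −1.80.

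Ccl3, which is expressed from the neighbouring gene of Ccl4, was at 246, 188 and 141 CPM in OVX and at 477, 286 and 282 CPM in sham. Its groups did not overlap, but sham 1 was well above sham 2 and sham 3. Ccl3 had a log2 fold change of −0.995 ± 0.29 (edgeR adjusted p = 0.0576) and was not called. It was called by DESeq2 (adjusted p = 0.0118).

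Ligands of Ccr2 had sham 1 apart from the other sham libraries in the same way. Ccl12 was at 34.0, 24.2 and 20.3 CPM in OVX and at 95.6, 40.7 and 48.1 CPM in sham. All OVX libraries were below all sham libraries, and the log2 fold change was −1.43 ± 0.33 (edgeR adjusted p = 0.0288). The call was lost without OVX 1 (−1.66, edgeR adjusted p = 0.0612), without OVX 2 (−1.36, 0.119), without OVX 3 (−1.27, 0.0607) and without sham 1 (−0.79, 0.0685), and held without sham 2 and 3 (−1.87, 0.00182).

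Ccl7 was at 130, 133 and 87.7 CPM in OVX and at 307, 145 and 149 CPM in sham. The OVX levels of Ccl7 stayed below those of sham, with a log2 fold change of −0.96 ± 0.32 (edgeR adjusted p = 0.0816). Ccl2 (MCP-1) was at 126, 84.5 and 66.4 CPM in OVX and at 242, 109 and 100.7 CPM in sham. OVX 1 was above sham 2 and sham 3 for Ccl2, so the groups overlapped, and the log2 fold change was −0.91 ± 0.37 (edgeR adjusted p = 0.143). Without sham 1, the log2 fold change was −0.19 for Ccl2, −0.34 for Ccl7 and −0.57 for Ccl3, and none of the 3 was called. Without sham 2 and 3 it was −1.40, −1.40 and −1.32, and all 3 were called, which made 6 members called in all.

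Ccl6 and Ccl9 differed least. Ccl6 was at 156, 136 and 121 CPM in OVX and at 212, 168 and 160 CPM in sham. Its log2 fold change was −0.45 ± 0.20 (edgeR adjusted p = 0.169). Ccl9 was at 320, 285 and 181 CPM in OVX and at 435, 278 and 277 CPM in sham, with overlapping groups and a log2 fold change of −0.45 ± 0.29 (edgeR adjusted p = 0.327). Neither was called, and the errors leave room for a fall of both.

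Ccl22 and Ccl24 were near the limit of detection in BMMs. Ccl22 had 8, 6 and 4 counts in OVX and 12, 12 and 4 in sham, with a log2 fold change of −1.12 ± 0.69 (edgeR adjusted p = 0.317). Ccl24 had 5, 10 and 4 counts in OVX and 0, 2 and 4 in sham and was removed by the filter on low counts, so it was not tested. For Ccl22, no difference was detectable at these counts.

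Removal of the trends of counts on GC content and gene length changed the number of members called more than any other alternative. It called 7 members lower, the 3 above with Ccl2 (−1.26), Ccl3 (−1.20), Ccl7 (−1.44) and Ccl9 (−1.02). Over all genes the same removal took the calls from 903 higher and 516 lower to 220 higher and 370 lower. The library codes in the column names fell in 2 series. In the series of OVX 2 and sham 2, 8 of 9 members were lower in OVX and Ccl9 had a log2 ratio of 0.03. In the series of the other 4 libraries 9 of 9 were lower. The 2 series are not independent, because sham 2 and sham 3 are near-identical. The share of all genes lower within a series was not computed.

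**Figure D2:**
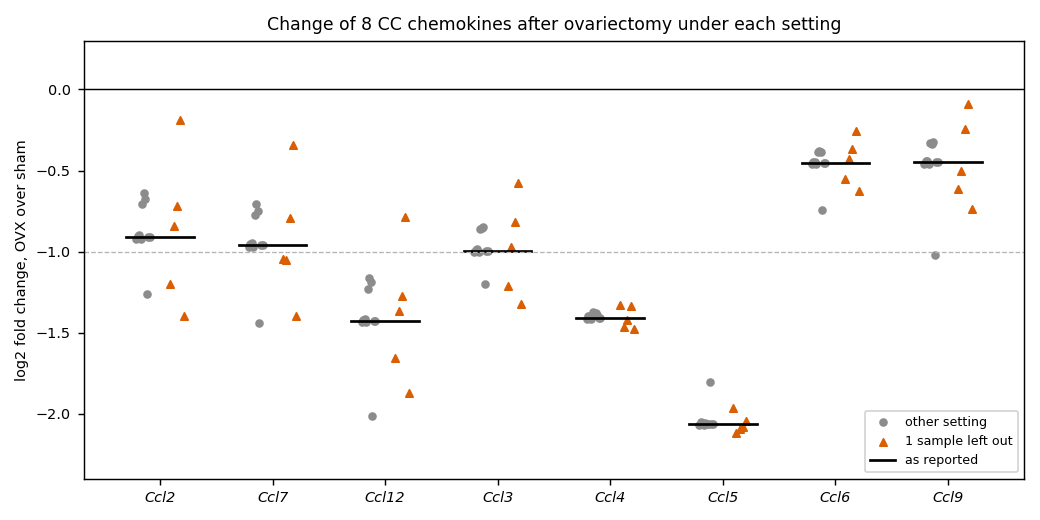
Log2 fold change of OVX over sham (vertical axis) for the 8 members with ample counts. Black lines are the values as reported, triangles the fits with 1 sample left out and grey points the other alternatives. Ccl4 and Ccl5 varied least, and Ccl2 ran from −1.40 to −0.19.

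**Figure D3:**
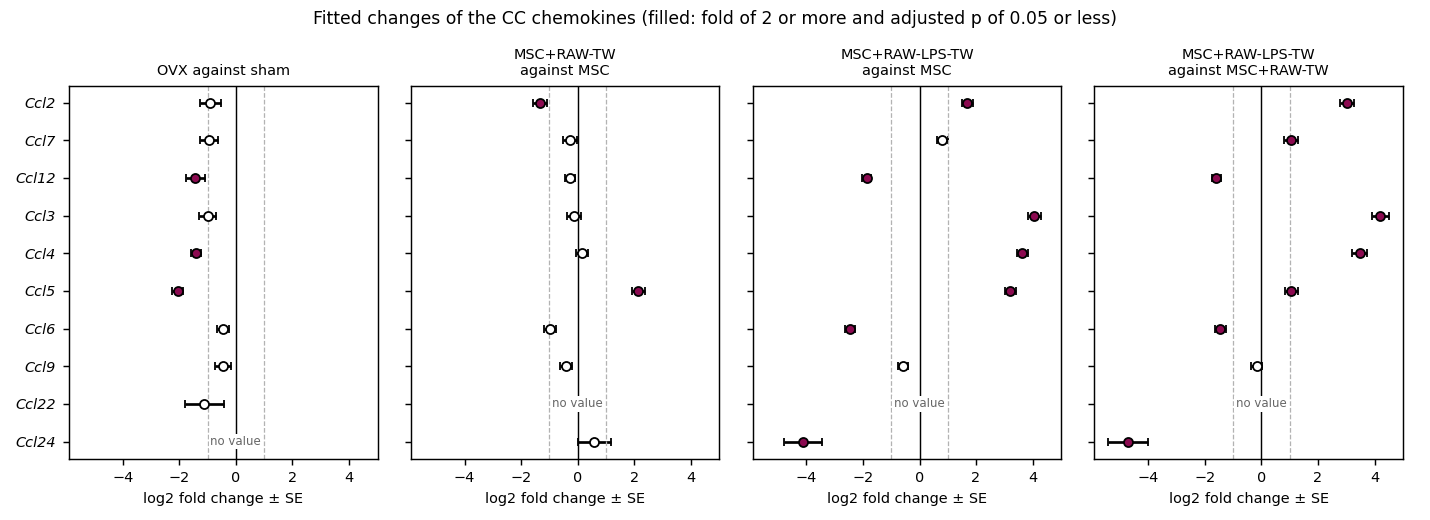
Fitted log2 fold change (horizontal axis) with its SE (bars) for each CC chemokine in the 4 comparisons. Filled points passed a fold of 2 and an adjusted p of 0.05, dashed lines mark the fold of 2, and "no value" marks a gene that was not tested or had 0 counts in a whole group. In OVX against sham all 9 points lie left of 0, and with LPS the members lie on both sides.

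Among 11 other CC ligands, 6 were tested in BMMs, and 1 was called lower and 0 higher. Their median was −1.03 on the log2 scale. Ccl8, another ligand of monocyte receptors and the next gene after Ccl12 on chromosome 11, was the 1 called. It was at 6.45 to 7.16 CPM in OVX and 26.2 to 32.9 CPM in sham (log2 fold change −2.15, edgeR adjusted p = 0.00273). Of 14 CC and atypical receptors, 9 were tested, and 1 was called higher and 0 lower, with a median of 0.37. The receptor called was Ccr2, through which Ccl2, Ccl7 and Ccl12 act. Ccr2 was at 47.1 to 70.5 CPM in OVX and 9.74 to 11.1 CPM in sham, a log2 fold change of 2.45 (edgeR adjusted p = 0.00301). Ccr1 was at 34.4 CPM in OVX and 16.8 CPM in sham on average and was not called (edgeR adjusted p = 0.112).

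Of 14 genes of Toll-like receptor 4 and NF-kappa B signalling, 3 were called lower in OVX and 0 higher. Their median was −0.61 on the log2 scale. They were Nfkbia, which encodes the inhibitor of NF-kappa B and is itself induced by it (318 against 780 CPM, −1.30, edgeR adjusted p = 0.00741), Nfkb2 (−1.15, 0.00999) and Relb (−1.07, 0.0321). Of 12 interferon pathway genes, 11 were tested, 6 were called lower and 0 higher, and the median was −1.07. Irf7, a transcription factor of the interferon response, was at 37.5 CPM in OVX and 164 CPM in sham (−2.14, edgeR adjusted p = 0.00453), and Isg15, a ubiquitin-like protein induced by interferon, was at 27.4 and 112 CPM (−2.04, 0.00545). Macrophage markers moved with these groups, with 6 of 20 called lower in OVX and 0 higher. Their sum was 47503 to 51794 CPM in OVX and 65880 to 71351 CPM in sham, most of it Lyz2 (37682 and 50085 CPM). Of 10 lymphocyte markers, 8 were tested and 2 were called lower, with sums of 10.2 to 11.1 CPM in OVX and 24.4 to 25.1 CPM in sham. The sum of 9 neutrophil markers was 1200 to 1330 CPM in OVX and 812 to 939 CPM in sham. That of 12 stromal markers was 11931 to 12923 CPM in OVX and 10534 to 11765 CPM in sham, with 2 called higher and 0 lower. Ribosomal RNA took 2.56% to 2.78% of counts in OVX and 3.22%, 5.69% and 5.70% in sham 1 to 3. The part of these differences in the chemokine levels was not tested.

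In the second experiment, the members moved in opposite directions when the co-cultured RAW264.7 cells had been stimulated with LPS (MSC+RAW-LPS-TW, written in short as with LPS). Against MSC+RAW-TW, 5 members were called higher (Ccl2, Ccl3, Ccl4, Ccl5 and Ccl7) and 3 lower (Ccl6, Ccl12 and Ccl24) of 10 tested. Of all 20499 genes, 27.4% were called in this comparison, 15.4% higher and 2458 genes lower. Against MSC, 5 were called higher (Ccl2, Ccl3, Ccl4, Ccl5 and Ccl22) and 3 lower (Ccl6, Ccl12 and Ccl24), with backgrounds of 5.85% and 5.09%. Ccl22 had 0 counts in MSC and was tested only through its counts with LPS, so its call carries no weight. Both comparisons use the same MSC+RAW-LPS-TW libraries, so they are not independent. The members' median log2 fold change was 1.06 from MSC+RAW-TW and 1.25 from MSC, beside 0.14 and −0.01 for all genes. These medians include Ccl22, which had 0 counts in MSC and MSC+RAW-TW. Without Ccl22 the middle member was Ccl7, at 1.06 from MSC+RAW-TW and 0.80 from MSC, the latter under the fold limit. MSC+RAW-TW counts as 1 sample, so its spread was taken to be that of the other MSC groups.

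Ccl3 and Ccl4 rose with LPS in both comparisons. Ccl3 was at 57.6 and 83.3 CPM in MSC 1 and 2, at 63.3 and 61.7 CPM in the MSC+RAW-TW libraries, and at 955 and 1398 CPM in the MSC+RAW-LPS-TW libraries. The unstimulated co-culture lay within the range of MSC, and both LPS libraries were far above it. With LPS, Ccl3 had a log2 fold change of 4.21 ± 0.31 from MSC+RAW-TW (edgeR adjusted p = 9.1e-08) and of 4.06 ± 0.23 from MSC (3.0e-09). Ccl4 was at 38.6 and 39.3 CPM in MSC, 43.3 and 41.8 CPM in MSC+RAW-TW, and 397 and 566 CPM in MSC+RAW-LPS-TW. It rose with LPS by 3.47 ± 0.25 on the log2 scale from MSC+RAW-TW (edgeR adjusted p = 8.4e-08) and by 3.63 ± 0.19 from MSC (1.5e-09).

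Ccl5 differed from Ccl3 and Ccl4 in that it was already higher next to unstimulated RAW264.7 cells. It was at 220 and 226 CPM in MSC, 971 and 968 CPM in MSC+RAW-TW, and 1606 and 2524 CPM in MSC+RAW-LPS-TW. Each step was a rise without overlap. MSC+RAW-TW against MSC gave a log2 fold change of 2.15 ± 0.22 (edgeR adjusted p = 9.7e-05), and LPS co-culture against unstimulated co-culture gave 1.06 ± 0.24 (0.00259). The second value rests on the higher LPS library, MSC+RAW-LPS-TW b, and without it was 0.71, under the fold limit. Ccl3 and Ccl5 are in a heatmap that the study drew from the MSC libraries, so their changes there are not independent evidence.

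Ccl2 and Ccl7, neighbours on chromosome 11, were also higher with LPS. Ccl2 was at 195 and 296 CPM in MSC, 94.8 and 96.6 CPM in MSC+RAW-TW, and 775 and 812 CPM in MSC+RAW-LPS-TW. The unstimulated co-culture had the lowest level and the LPS co-culture the highest. Ccl2 fell by 1.33 ± 0.24 on the log2 scale in MSC+RAW-TW against MSC (edgeR adjusted p = 0.00105) and rose by 3.03 ± 0.26 from there to MSC+RAW-LPS-TW (5.2e-07). After removal of the GC and length trends the first of these was −0.75 and no longer called. Ccl7 was at 329 and 506 CPM in MSC, 340 and 343 CPM in MSC+RAW-TW, and 640 and 811 CPM in MSC+RAW-LPS-TW. With LPS, Ccl7 rose by 1.06 ± 0.25 on the log2 scale from MSC+RAW-TW (edgeR adjusted p = 0.00327), with a difference of 0.80 ± 0.20 from MSC (0.00781), under the fold limit. The call of Ccl7 was lost without MSC+RAW-LPS-TW b (0.89) and after removal of the GC and length trends (0.36), and against MSC the gene was called without MSC 2 (1.15).

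Ccl12, the third ligand of Ccr2 in this block, went the other way. It was at 195 and 196 CPM in MSC, 156 and 161 CPM in MSC+RAW-TW, and 55.9 and 51.3 CPM in MSC+RAW-LPS-TW. The LPS libraries were the lowest, and replicates lay close together. Ccl12 fell by 1.59 ± 0.17 on the log2 scale against MSC+RAW-TW (edgeR adjusted p = 4.9e-06) and by 1.87 ± 0.15 against MSC (2.0e-07). After removal of the GC and length trends the first of these was −2.36. Per length, the ratio of Ccl2 to Ccl12 was 0.47 to 0.71 in MSC, 0.28 in MSC+RAW-TW, 6.54 to 7.47 in MSC+RAW-LPS-TW, 1.12 to 1.19 in sham (sham 2 and 3 as 1 sample) and 1.54 to 1.75 in OVX. Ccl12 exceeded Ccl2 per length in the MSC and MSC+RAW-TW libraries and, narrowly, in sham 3 (89.6 against 88.5 RPKM).

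Ccl6 and Ccl9, adjacent genes in the other block, parted as well. Ccl6 was at 419 and 543 CPM in MSC, 237 and 238 CPM in MSC+RAW-TW, and 80.1 and 96.7 CPM in MSC+RAW-LPS-TW. Each group was below the one before it. With LPS, Ccl6 fell by 1.45 ± 0.20 on the log2 scale against MSC+RAW-TW (edgeR adjusted p = 4.0e-05) and by 2.44 ± 0.18 against MSC (5.4e-08). MSC+RAW-TW against MSC gave −0.99 ± 0.21 (edgeR adjusted p = 0.00333), just under the fold limit, and 7 alternatives moved its value past the limit, among them the fits without MSC 1 (−1.17), without either MSC+RAW-TW library (both −1.02) and without MSC+RAW-LPS-TW a (−1.03). Without MSC 2 it was −0.79, and after removal of the GC and length trends −0.58 (edgeR adjusted p = 0.0668). Ccl9 was at 579 and 685 CPM in MSC, 460 and 466 CPM in MSC+RAW-TW, and 369 and 471 CPM in MSC+RAW-LPS-TW. The co-cultures overlapped, and the log2 difference with LPS was −0.17 ± 0.20 from MSC+RAW-TW (edgeR adjusted p = 0.532) and −0.59 ± 0.17 from MSC (0.0183, under the fold limit). After removal of the GC and length trends the first of these was −0.78 (edgeR adjusted p = 0.00895), still under the fold limit.

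**Figure D4:**
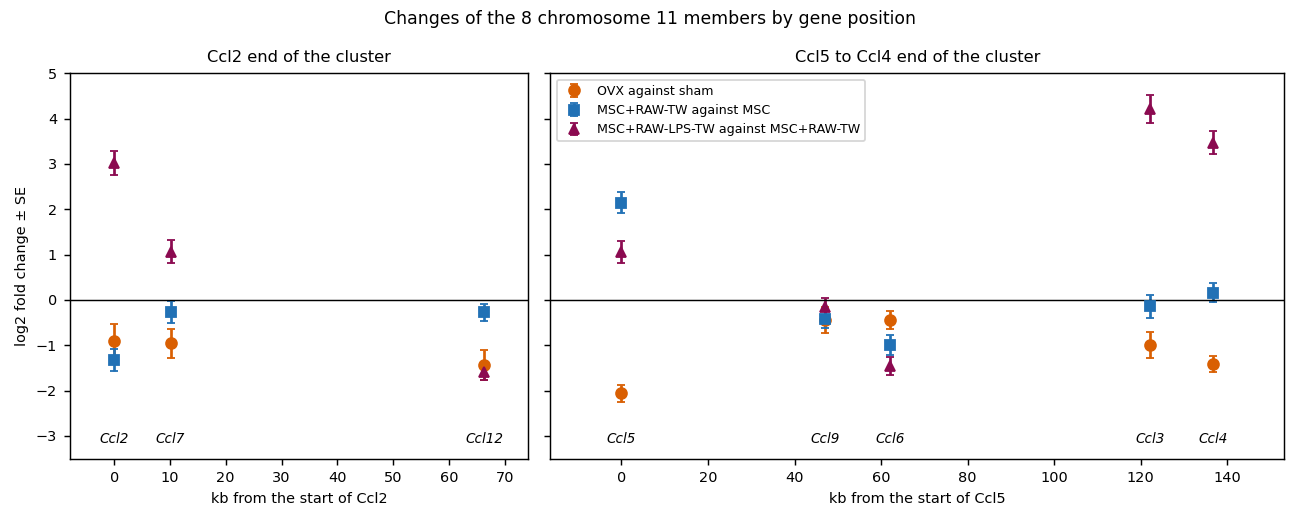
Log2 fold change with its SE (vertical axis) of the 8 members on chromosome 11 against the distance of each gene from the first gene of its block in kb (horizontal axis). Circles are OVX against sham, squares MSC+RAW-TW against MSC and triangles the LPS co-culture against the unstimulated one. With LPS, Ccl12 and Ccl6 lie below 0 (−1.59 and −1.45), Ccl9 lies within its SE of 0 (−0.17 ± 0.20) and Ccl2, Ccl7, Ccl5, Ccl3 and Ccl4 lie above.

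Ccl22 and Ccl24 had few counts, and moved in opposite directions. Ccl22 had 0 counts in all 4 MSC and MSC+RAW-TW libraries and 20 and 12 counts in MSC+RAW-LPS-TW. Against a floor of 3 counts per library, its mean was at least 6.57-fold higher than in MSC and at least 6.14-fold higher than in MSC+RAW-TW. Ccl22 passed the filter on low counts only through its LPS libraries, so its p-values carry no weight and only the floor is used. The call against MSC (edgeR adjusted p = 0.0456) was lost without MSC 1 or without MSC 2, and DESeq2 gave no adjusted p for it. Against MSC+RAW-TW, Ccl22 was not called (edgeR adjusted p = 0.0653), and 4 of 14 alternatives that called it carry no weight either. Ccl24 had 94 and 47 counts in MSC, 100 and 84 in MSC+RAW-TW, and 4 and 2 in MSC+RAW-LPS-TW. The LPS libraries held far fewer in both comparisons. The log2 fold change of Ccl24 with LPS was −4.70 ± 0.70 from MSC+RAW-TW (edgeR adjusted p = 9.1e-05) and −4.12 ± 0.66 from MSC (0.000241). Relative to library sizes scaled as for CPM, MSC+RAW-TW held 26.3 times the Ccl24 of MSC+RAW-LPS-TW (95% Clopper-Pearson interval 11.8 to 72.5) and MSC held 18.3 times (8.22 to 50.8). These intervals and floors cover counting error only, and even counts made up 60.0% to 71.4% of low counts in each library, so single counts were not independent molecules.

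In MSC+RAW-TW against MSC, 9 members had counts. Of these, 1 was called higher (Ccl5) and 1 lower (Ccl2), beside 6.8% and 9.59% of all genes, so these 2 calls show nothing particular to the members. The median log2 fold change was −0.26 for the 9 members and −0.13 for all genes. Ccl3 (−0.14 ± 0.25), Ccl4 (0.16 ± 0.21), Ccl7 (−0.26 ± 0.24), Ccl12 (−0.28 ± 0.18), Ccl9 (−0.42 ± 0.21) and Ccl24 (0.58 ± 0.58) were not called. After removal of the GC and length trends, Ccl3, Ccl7, Ccl9 and Ccl12 turned above 0.

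Per length of message, the members' order differed between groups. In sham BMMs Ccl4 (549 RPKM) and Ccl3 (497 RPKM) led, followed by Ccl7 (283 RPKM), and the ranges of the neighbours in the order overlapped down to Ccl6. In OVX the order was Ccl3 (250 RPKM), Ccl4 (208 RPKM) and Ccl7 (146 RPKM), with the first pair overlapping. In MSC Ccl7 (521 RPKM) led, then Ccl12 (365 RPKM) and Ccl6 (268 RPKM), and Ccl3 (92.0 RPKM) and Ccl4 (59.0 RPKM) stood seventh and eighth. Ccl5 led in MSC+RAW-TW (1010 RPKM) and in MSC+RAW-LPS-TW (2151 RPKM, overlapping with Ccl3 at 1536 RPKM), while in both BMM groups it ranked eighth. Ccl22 and Ccl24 were the 2 lowest in every group, at 1.88 RPKM or less.

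The sum of the 10 members was 1732 to 2191 RPKM in MSC, 2248 RPKM in MSC+RAW-TW and 5273 to 7342 RPKM in MSC+RAW-LPS-TW. Ccl3, Ccl4 and Ccl5 made up 18.4% to 20.9% of that sum in MSC, 51.4% in MSC+RAW-TW and 66.8% to 72.3% in MSC+RAW-LPS-TW. Ccl6, Ccl9 and Ccl12 made up 40.8% to 45.4%, 25.8% and 4.14% to 5.12% in the same order. In BMMs, Ccl3, Ccl4 and Ccl5 made up 49.3% to 54.9% in OVX and 54.5% to 63.2% in sham. Levels of the 2 experiments were normalised separately, so they are set side by side with no test.

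**Figure D5:**
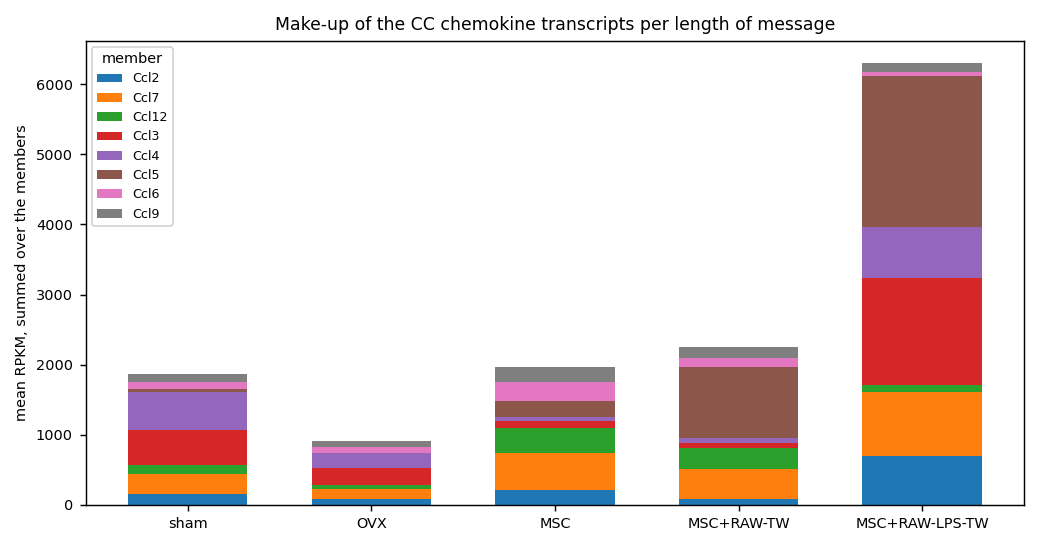
Mean level of 8 CC chemokines in RPKM, stacked by group (the horizontal axis), as a mean over samples. Ccl22 and Ccl24 are too low to be seen and were left out, and the BMM and MSC groups were normalised separately. The tallest stack is MSC+RAW-LPS-TW, where Ccl5 (2151 RPKM), Ccl3 and Ccl4 take up most of the height.

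Other CC ligands in the MSC groups likewise split. Of 5 tested, 2 were called higher and 2 lower with LPS against MSC+RAW-TW, and 2 higher and 1 lower against MSC, with medians of −0.02 and 0.15. Beside these and the receptors below, 15.4% of all genes were called higher and 2458 of 20499 lower with LPS against MSC+RAW-TW. The shares were 5.85% and 5.09% against MSC, and 6.8% and 9.59% in MSC+RAW-TW against MSC. Ccl20, a ligand of Ccr6, was at 5.19 and 11.2 CPM with LPS and 0.10 CPM in MSC+RAW-TW (log2 fold change 6.21, edgeR adjusted p = 2.5e-05). Ccl17, a second ligand of Ccr4, was at 3.51 and 4.45 CPM with LPS and 1.24 CPM in MSC+RAW-TW (1.66, 0.0177). Ccl8 was at 53.7 CPM in MSC, 115 CPM in MSC+RAW-TW and 9.94 and 10.7 CPM with LPS. From MSC+RAW-TW, Ccl8 had a log2 fold change with LPS of −3.51 (edgeR adjusted p = 2.2e-09). Ccl27a was called lower as well (−2.76, edgeR adjusted p = 0.00054). MSC+RAW-TW against MSC had 3 of the 5 called higher, Ccl8 (1.12), Ccl17 (1.47) and Ccl27a (1.56), and 0 lower.

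Of 9 receptors tested, 3 were called higher and 3 lower with LPS against MSC+RAW-TW, and 1 higher and 4 lower against MSC, with medians of −1.89 and −1.56. Ccrl2, an atypical receptor that binds chemerin, was at 56.3 and 70.8 CPM with LPS, 11.2 CPM in MSC+RAW-TW and 6.53 CPM in MSC. It rose with LPS by 2.46 on the log2 scale from MSC+RAW-TW (edgeR adjusted p = 9.1e-06) and by 3.29 from MSC (3.4e-08). Ccr1, the receptor of Ccl6 and Ccl9, was at 26.7 CPM with LPS, 9.92 CPM in MSC+RAW-TW and 29.7 CPM in MSC. Ccr1 was called higher with LPS against MSC+RAW-TW (1.38, edgeR adjusted p = 0.000134) and lower in MSC+RAW-TW against MSC (−1.53, 0.000293). Ccr9 had a mean of 1.14 CPM with LPS and 0 counts in MSC+RAW-TW.

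Ccr2 was at 24.8 and 27.9 CPM in MSC, 20.4 CPM in MSC+RAW-TW and 1.08 and 1.69 CPM with LPS. That was a log2 fold change of −3.90 from MSC+RAW-TW (edgeR adjusted p = 4.5e-08) while its ligands Ccl2 and Ccl7 rose and Ccl12 fell. Ccr3, the receptor of Ccl24, was also lower with LPS, by a log2 fold change of −1.89 from MSC+RAW-TW (edgeR adjusted p = 0.000108) and of −3.76 from MSC (3.5e-08). Ackr4, which removes chemokines from the surroundings, was at 0.47 CPM with LPS and 7.06 CPM in MSC+RAW-TW (−3.95, edgeR adjusted p = 3.8e-06). In MSC+RAW-TW against MSC, 4 receptors were called lower, among them Ccr1, Ccr3 (−1.86) and Ccr9, and 0 higher.

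Of 14 genes of Toll-like receptor 4 and NF-kappa B signalling, 7 were called higher with LPS and 0 lower against MSC+RAW-TW (median 0.90) and 6 higher and 1 lower against MSC (median 0.69). Tnfaip3, a feedback inhibitor of NF-kappa B, was at 256 CPM with LPS and 12.4 CPM in MSC+RAW-TW (log2 fold change 4.35, edgeR adjusted p = 3.5e-09). Nfkbiz was at 432 and 32.1 CPM (3.73, edgeR adjusted p = 1.3e-08). Tlr4, the receptor itself, was the gene called lower against MSC, at 15.8 against 35.3 CPM (−1.16, edgeR adjusted p = 0.000153). Without LPS, 0 of the 14 were called by edgeR in either direction in MSC+RAW-TW against MSC, where 16.4% of all genes were called. Of the 14, 5 passed the limit on the adjusted p and missed the fold limit, with Nfkbia (0.92), Relb (0.84), Rela (0.93) and Ticam1 (0.77) above 0 and Tnfaip3 (−0.91) below (edgeR adjusted p = 0.00204 to 0.00713). At an unadjusted p under 0.05, 4 of the 14 were higher and 3 lower. Of 11 interferon genes tested, 6 were called higher with LPS against MSC+RAW-TW and 5 against MSC, and 0 lower in both. In MSC+RAW-TW against MSC, 1 was called higher, Irf7 (1847 against 595 CPM, 1.66), and 2 lower, Ifit1 (−1.14) and Mx1 (−1.02). Ifit1 was at 139 CPM in MSC, and at 437 CPM with LPS and 62.1 CPM in MSC+RAW-TW (2.79, edgeR adjusted p = 1.2e-07), and Ifnar2, a subunit of the interferon receptor, at 111 and 33.7 CPM (1.68, 2.2e-05).

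Markers of other cells also moved in these groups. With LPS against MSC+RAW-TW, 4 of 20 macrophage markers were called higher and 9 lower, and 4 of 12 stromal markers higher and 1 lower. With LPS against MSC, 1 macrophage marker was called higher and 7 lower, and 2 stromal markers higher and 0 lower. In MSC+RAW-TW against MSC, 5 macrophage markers were called higher and 1 lower, and 2 stromal markers higher and 1 lower. Over all genes, 15.4% were called higher and 2458 of 20499 genes lower with LPS against MSC+RAW-TW. The shares were 5.85% and 5.09% with LPS against MSC, and 6.8% and 9.59% in MSC+RAW-TW against MSC. Some of the marker counts lie near these shares. The sum of 10 lymphocyte markers was 1.34 CPM or less in all MSC groups, and 4 of the 10, Cd3e, Cd3g and Gzma among them, were at 0 in MSC. The sum of 9 neutrophil markers was 11.7 to 16.4 CPM in MSC, 33.2 CPM in MSC+RAW-TW and 370 to 555 CPM with LPS, with Ltf and Retnlg at 0 in all 3 groups. Of the 9, 1 reached 1 CPM in MSC and 2 in each co-culture group, so the rise rests on few genes. Dendritic cell markers summed to 57.6 to 91.3 CPM over these groups and eosinophil, basophil and mast cell markers to 42.9 to 113 CPM, with Epx, Prg2 and Prg3 at 0. Few genes carried these sums. In each group 2 of 7 dendritic cell markers reached 1 CPM. Of the 8 eosinophil, basophil and mast cell markers, 2 did in MSC and in MSC+RAW-TW and 1 with LPS. Ribosomal RNA took 4.14% to 4.83% of counts in MSC, 1.91% to 1.93% in MSC+RAW-TW and 5.67% to 8.03% with LPS. The part of these differences in the chemokine levels was not tested.

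The genes whose log2 CPM followed each member most closely over the 10 samples were sought among 9723 genes, each averaging 5 CPM or more in both experiments. For the ligands of Ccr2 they were Car13 (Pearson r = 0.98) and Ifit1 (0.98) for Ccl2, Epsti1 (0.99) and Icmt (0.98) for Ccl7, and Lrmp (0.96) and Pitpna (0.95) for Ccl12. For Ccl3 they were Fzd1 (0.98) and Mmp8 (0.97), for Ccl4 Spn (0.98) and Sh3bp4 (0.98), and for Ccl5 Gzme (1.00) and Tapbpl (0.99). Ccl6 was nearest to Cd200r1 (0.96) and Atp8a1 (0.95), Ccl9 to Slc7a7 (0.96) and D6Wsu163e (0.94), Ccl22 to Bsdc1 (0.99) and Itgb3 (0.98), and Ccl24 to Ptpra (0.98) and Metap1d (0.96). Each r spans 2 experiments with separate normalisation, so it carries the distance between them as well as the changes within each. No member was among the 2 genes nearest to another member.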

How the data were processed

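The members and gene lists were chosen with earlier results of these data known. RNA-seq was measured in 12 libraries. Per the study's methods, polyadenylated RNA went into strand-marking libraries, and the authors trimmed read pairs with Trim Galore 0.6.7, mapped them to GRCm38 with HISAT2 2.1.0 and counted reads with featureCounts 2.0.1. What they deposited is raw counts, 1 per gene and library. The strand setting and the counting of pairs were not stated.

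Counts were fitted per experiment with edgeR 4.0.16 in R 4.3.3 (TMM normalisation, filterByExpr, quasi-likelihood test, Benjamini-Hochberg adjustment over all genes tested, two-sided). Calls required a fold of 2 and an adjusted p of 0.05, and n counted near-identical libraries as 1 sample, summed in the fit. CPM and RPKM used TMM within each experiment, with the deposited exon lengths. Groups came from the sample labels. Both MSC+RAW-TW columns carry the number 1 and the MSC+RAW-LPS-TW columns 2 and 3, unlike the labels' replicates, so these columns were matched to groups only and are called a and b.

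The named genes were the 10 members, list genes of lowest adjusted p in each direction, and for each member the 2 genes of highest Pearson r. Ccr1, Ccr9, Ccl27a, Isg15, Nfkbiz, Ifnar2 and further called genes of short lists were added after their values were seen. A few genes of the receptor, IL-4 and lymphocyte lists are not reported here and stay in those lists' counts. Identifiers were named from GENCODE annotation of GRCm38 (55227 of 55487), and promoters from RefSeq. Alternatives were RLE normalisation, DESeq2 1.42.0, limits on low counts, every library a sample, a replicate block, each sample left out, only the groups compared, GC and length trends removed (lowess span 0.3), library sizes without mitochondrial genes and no fold limit. The fits were tested on simulated data. Python 3.11.15, numpy 2.4.6, pandas 2.3.3, scipy 1.17.1 and matplotlib 3.10.9 made the tables and figures.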

Additional observations from a re-analysis of the deposited data

How the results depend on the processing

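Of 587 values of single members under an alternative, 547 kept their direction and their side of the threshold, 10 lost the call, 23 gained it and 7 reversed. With the GC and length trends removed, OVX against sham called 7 members and 590 genes (37.3% of them higher, against 63.6%), MSC+RAW-TW against MSC called 1 member and 2165 genes (52.1% higher, against 41.5%), and in the latter Ccl3 (0.33), Ccl7 (0.44), Ccl9 (0.17) and Ccl12 (0.50) reversed. The cause was not tested. With each sample left out in turn, MSC+RAW-TW against MSC gave −0.39 to 0.14 for Ccl3 and −0.54 to 0.080 for Ccl7 (above 0 without MSC 2), and the LPS co-culture against MSC+RAW-TW gave −0.35 to 0.010 for Ccl9 (above 0 without MSC+RAW-LPS-TW a). None of these was called before. With no fold limit, the calls over all genes numbered 2193 for OVX against sham, 4286 for MSC+RAW-LPS-TW against MSC and 5862 for MSC+RAW-TW against MSC. Leaving out 1 sample in OVX against sham gave 309 (without OVX 2) to 2390 genes (without sham 1), with 678 without OVX 1, and 2 to 6 members (6 without sham 2 and 3). Leave-one-out fits gave 7 to 8 members for the LPS co-culture against MSC, 6 to 8 for it against MSC+RAW-TW and 2 to 3 for MSC+RAW-TW against MSC.

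The replicate number as a block, with every library a sample, called 3 members and 2117 genes in OVX against sham. Deviations of same-numbered libraries correlated at 0.36, −0.01 and 0.31, and those of other OVX and sham libraries at −0.43 to 0.25. With sham 2 and sham 3 near-identical, these values cannot settle whether the numbers mark pairs. For the MSC groups no block by replicate number was possible, because the numbers of both co-culture groups' columns do not match the labels. The series of the library codes as a block, chosen after seeing the data, called 3 members and 1693 genes in OVX against sham, 8 and 2383 for the LPS co-culture against MSC, 9 and 6629 for it against MSC+RAW-TW, and 3 and 4489 for MSC+RAW-TW against MSC. Each series of MSC columns held 1 library of every group. Where a group was left with 1 sample, that sample was assumed to vary like the other groups. Low counts limited what could be said of Ccl22 in all groups, and of Ccl24 in BMMs.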

Other observations

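The IL-4 and STAT6 pathway, which drives Ccl17, Ccl22 and Ccl24 in macrophages in other settings, was listed with 10 genes. In OVX against sham, 8 were tested, 1 was called higher and 1 lower. Mrc1, the mannose receptor, was at 203 CPM in OVX and 50.4 CPM in sham (log2 fold change 2.004, edgeR adjusted p = 0.00453), and Il4ra, the IL-4 receptor alpha chain, was at 152.2 and 348 CPM (−1.20, 0.00893). With LPS, 1 of 7 tested was called higher and 4 lower, both against MSC+RAW-TW (median −1.73) and against MSC (median −1.38). Mrc1 was at 3.999 CPM with LPS, 296 CPM in MSC+RAW-TW and 589 CPM in MSC, a log2 fold change of −6.24 with LPS from MSC+RAW-TW (edgeR adjusted p = 3.2e-11). Pparg and Irf4 were called lower with LPS as well (−1.73 and −3.85 against MSC+RAW-TW). In MSC+RAW-TW against MSC, 0 of the 7 were called by edgeR, with 3 at an unadjusted p under 0.05, and Mrc1 (−0.96, edgeR adjusted p = 0.00167) missed only the fold limit.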
